A study of Mus musculus with 6 samples.

Results

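The cytosolic ribosomal proteins are described here in mouse immature dendritic cells exposed to hydrogen peroxide (H2O2). Genes were taken by name: protein-coding genes called Rpl or Rps followed by a digit, with Rplp0, Rplp1, Rplp2 and Rpsa, and without the Rps6k kinases and Rps19bp1. This gave 89 of the 17567 genes in the files, 55 of the large (60S) subunit and 34 of the small (40S) subunit. Of these, 83 passed the filter on low counts, 51 of the large and 32 of the small subunit. Fau and Rack1 also encode ribosomal proteins, fall outside the naming rule and are given apart.

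The cells were grown from the marrow of male C57BL/6 mice aged 6 weeks, with GM-CSF at 20 ng/mL and IL-4 at 10 ng/mL in medium with 10% serum, and CD11c-positive cells were taken with magnetic beads on day 6. One group is labelled control, and the other received H2O2 at 100 µM for 24 h after the beads. The labels do not say whether control cells were kept for the same further time. Total RNA was extracted and the libraries were read by DNA nanoball sequencing. Of 3 deposited samples per group, the third H2O2 file repeated the first in all 17567 values and was counted once, which left 3 control and 2 H2O2 libraries. The labels do not say whether the libraries came from separate mice or cultures, so p-values measure only the spread between these libraries.

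The sample titles fall into a set without a suffix (set A: control replicate 1 and H2O2 replicate 1) and a set with a suffix (set B: control replicates 2 and 3 and H2O2 replicate 2). Transcripts of 4 Y-linked genes summed to 96.4 and 106 CPM (counts scaled to a common library size, here by plain totals) in the libraries of set A. In those of set B they summed to 0.120 to 0.427 CPM, although all labels say male. The comparison carried a term for the set. Total estimated counts ran from 16232604 to 16672491 per library. The dendritic cell marker Itgax, which encodes CD11c, was at 1473 to 2176 CPM in every library, while Cd209a was at 0 to 0.362 CPM.

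Ribosomal proteins coat and shape the ribosomal RNA, and each ribosome holds a single copy of most of them, the stalk proteins Rplp1 and Rplp2 being known exceptions. Their mRNAs typically start with a C followed by an uninterrupted run of pyrimidines, the 5′ terminal oligopyrimidine (TOP) motif. Through this motif the kinase complex mTORC1 and the RNA-binding protein LARP1 are known to set how strongly these mRNAs are translated and how long they are kept. RNA counts measure neither translation nor protein.

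To look for pyrimidine runs, 30 bases around the annotated start (15 before it and 15 from it on) are printed for 8 genes that the results turn on, from RefSeq on GRCm38.p6, 5′ to 3′. Capitals mark the longest run of C followed by at least 4 pyrimidines (C or T) on the gene's own strand. A run counted anywhere in the window, so it need not begin at the start as the TOP motif does. In Rpl10a and Rps27l it lies wholly before the annotated start, and in Rpl39 it begins after it. Where a gene has several annotated starts, the one with the longest run is printed.
Rpl35a, chr16:33056467-33056496, plus strand: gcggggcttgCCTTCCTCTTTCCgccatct
Rpl10a, chr17:28328456-28328485, plus strand: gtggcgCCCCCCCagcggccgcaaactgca
Rpl39, chrX:37085208-37085237, minus strand: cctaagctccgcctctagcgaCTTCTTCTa
Rpl41, chr10:128549154-128549183, minus strand: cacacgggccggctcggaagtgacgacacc
Rpsa, chr9:120127751-120127780, plus strand: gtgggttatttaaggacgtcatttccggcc
Rps6, chr4:86857353-86857382, minus strand: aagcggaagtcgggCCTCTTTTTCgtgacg
Rps27l, chr9:66946071-66946100, plus strand: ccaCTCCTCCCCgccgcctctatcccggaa
Rpl7l1, chr17:46782642-46782671, minus strand: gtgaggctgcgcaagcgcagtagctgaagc
Rpl35a, Rpl10a, Rpl39, Rpl41 and Rpsa were lower with H2O2 in the test described next, Rps6 is the best known phosphorylated ribosomal protein, and Rps27l and Rpl7l1 had fitted changes above 0. Rpl37, also lower in that test, is not printed and had no such run in its window. Of the genes lower in that test that have a window, 3 held a run and 3 did not. Such a run was found in 44 of the 68 ribosomal protein genes with a RefSeq window (64.7%), in 26 of 42 large and 18 of 26 small subunit genes. Of all 27025 genes with a window, 40.3% held one, of the other tested genes 43.2% did, and of the 69 mitochondrial ribosomal protein genes 47.8% did. The ETS-family motif CCGGAAG, searched on both strands over 300 bases (250 before the start to 50 after it), reads CTTCCGG on the other strand, and its first bases there can count as a pyrimidine run. It was in 26 of 68 (38.2%), against 9.93% of all genes, 20.4% of the other tested genes and 37.7% of the mitochondrial ribosomal protein genes. The median log2 change with H2O2 was -0.23 for the 40 tested genes with the pyrimidine run and -0.21 for the 23 without it. Such matches are letters in an annotated window and no evidence of a start site in these cells.

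Ribosomal protein mRNA took a smaller part of all counts in both H2O2 libraries than in any control library. All 89 genes together held 3.86%, 4.45% and 4.36% of counts in control replicates 1, 2 and 3, and 3.41% and 3.39% in H2O2 replicates 1 and 2. The means were 4.23% ± 0.320 (SD, n = 3) and 3.4% ± 0.0145 (SD, n = 2). An exact permutation test over libraries (two-sided) gave p = 0.2, where 3 against 2 libraries cannot go below 0.1, so the difference did not pass. This test took no account of the set and exchanged libraries across both sets. In bulk samples, fewer cells of a type and less of an RNA per cell cannot be told apart.

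Large subunit genes held 2.30%, 2.62% and 2.56% of counts in the controls and 2.04% and 2.0% with H2O2. Small subunit genes held 1.56%, 1.83% and 1.80% in the controls and 1.37% and 1.39% with H2O2. The ratio of large to small subunit counts lay between 1.42 and 1.496 in every library. Over all libraries the groups overlapped, and within each set the H2O2 library lay above the controls, at 1.496 against 1.48 in set A and 1.45 against 1.43 and 1.42 in set B. Within set A the share of all ribosomal protein genes was 11.6% lower with H2O2, and within set B it was 23.1% lower than the mean of the set's controls.

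**Figure D1:**
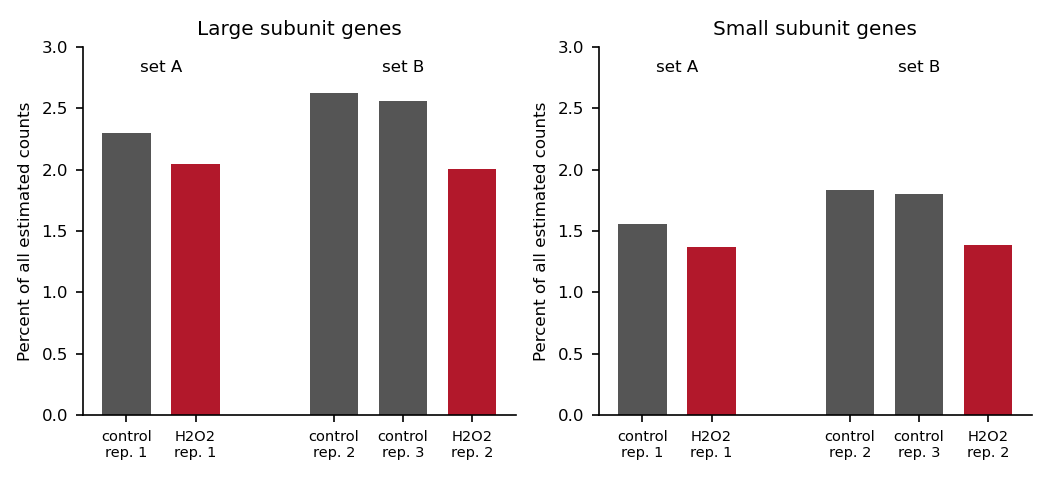
Percent of all estimated counts in large subunit genes (left) and small subunit genes (right), 1 bar per library, control in grey and H2O2 in red, by set. Each H2O2 bar is lower than the control bars, and control replicate 1 (2.30% and 1.56%) is the lowest of the controls.

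Per gene, 81 of the 83 tested genes had a fitted change below 0 with H2O2, against 48.4% of all 12209 tested genes, but few of these changes passed the test. By edgeR's quasi-likelihood test with Benjamini-Hochberg adjustment over all tested genes (adjusted p of at most 0.05), 9 ribosomal protein genes fell (10.8%), against 4.61% of all tested genes, and none rose, against 3.93%. At an unadjusted p of at most 0.05, 58 were lower, against 14.1% of all genes, and no ribosomal protein gene was called higher by DESeq2 or limma-voom either. Counting both directions, 8.54% of all tested genes were called. Of the large subunit, 7 of 51 fell, and of the small subunit 2 of 32 fell. The median log2 change was -0.24 (15.5% lower) over large and -0.22 (14.2% lower) over small subunit genes, with 0.01 over all tested genes.

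The median of each subunit was below 0 in every fit run, while the 9 calls did not hold in every fit. Without control replicate 1, 51 ribosomal protein genes were called lower, against 6.8% of all genes. None was called without control replicate 2 (3.87% of all genes called lower), without control replicate 3 (1.62%) or with a block for the replicate number (2.74%). None was called without the set term or without the filter on low counts either, where only 0% and 0.256% of all genes were called lower. In these fits without calls 81 to 82 ribosomal protein genes were below 0, of 83 to 88 fitted. Leaving out either H2O2 library leaves 1, so only the direction and size of changes are given for those fits. Below 0 were 82 of 84 genes without H2O2 replicate 1 and 79 of 84 without H2O2 replicate 2. Without H2O2 replicate 2 the median log2 change was -0.14 over large and -0.13 over small subunit genes.

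**Figure D2:**
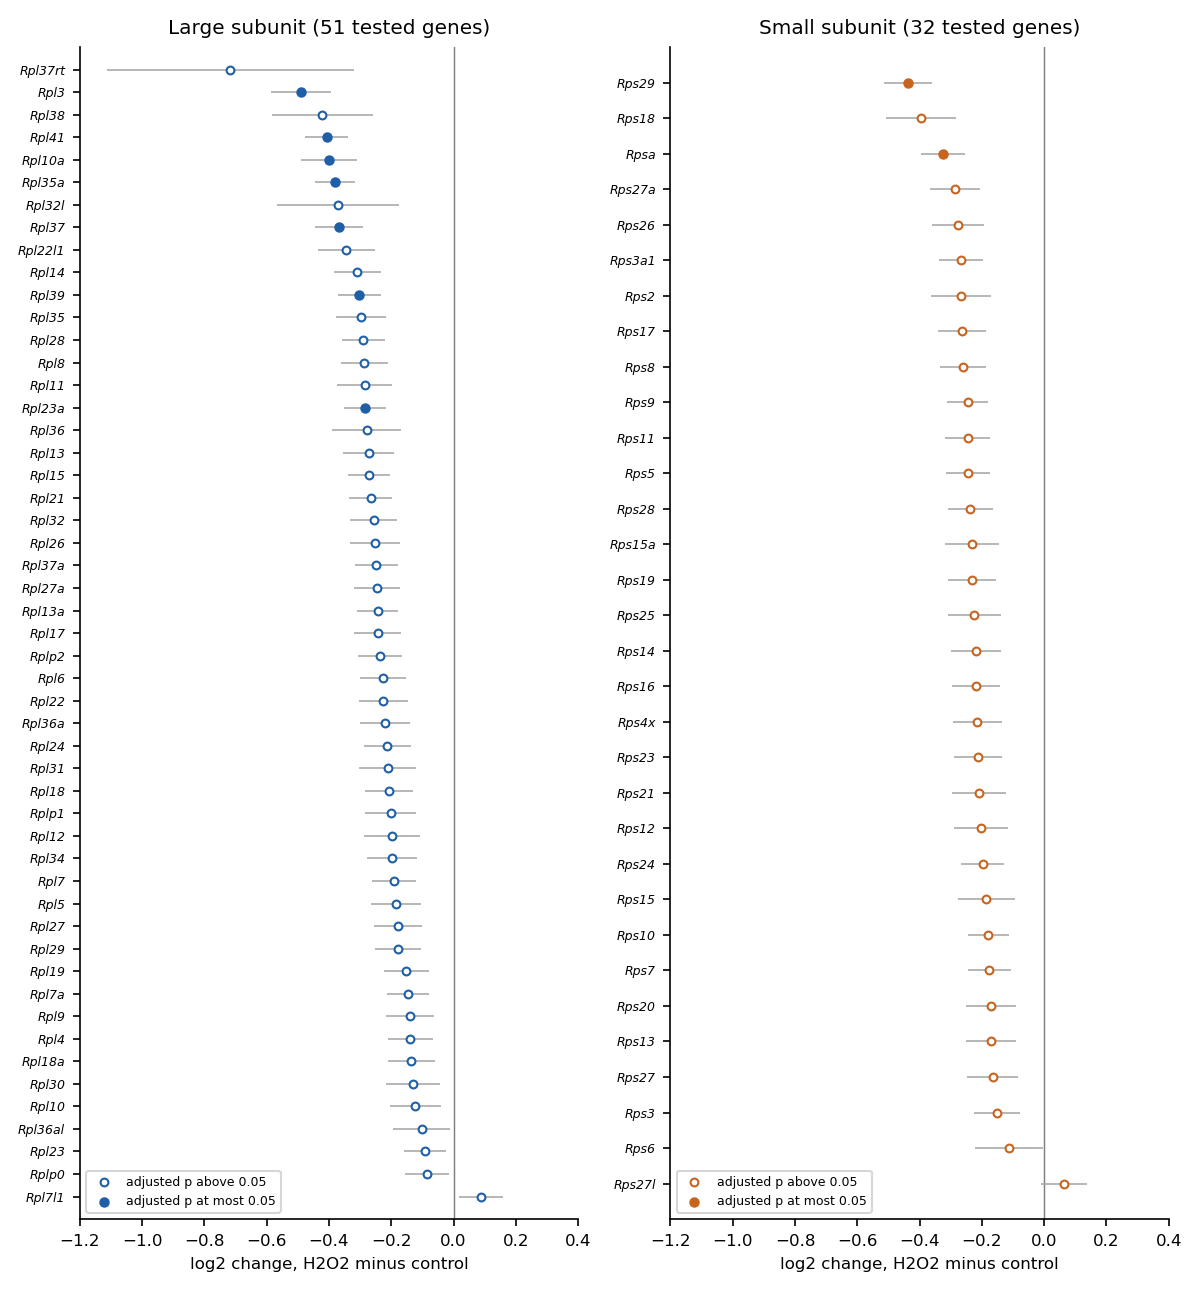
Fitted log2 change (H2O2 minus control, with the set term) of each tested gene of the large (left) and small (right) subunit, with its SE as a grey line. Filled points have an adjusted p of at most 0.05 (7 large, 2 small), and Rpl7l1 and Rps27l alone lie above 0.

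In the large subunit, Rpl3, a protein that reaches the peptidyl transferase centre, showed the largest fall among the called genes. Rpl3 (chromosome 15, 80077781 to 80083406, GRCm38.p6) stood at 908, 1134 and 1094 CPM in control replicates 1 to 3, beside 744 and 713 CPM in H2O2 replicates 1 and 2. The H2O2 libraries lay below every control library, and its log2 change was -0.49 ± 0.10 (SE, n = 3 and 2), 28.7% lower, with an edgeR adjusted p of 0.032. Rpl10a, the protein of the mobile L1 stalk beside the tRNA exit site, read 271, 319.7 and 303 CPM in the controls and 232 and 216 CPM with H2O2. Its groups did not overlap, and its log2 change was -0.40 ± 0.09 (SE, n = 3 and 2), adjusted p 0.043 by edgeR.

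Some of the other called genes encode very small proteins. Rpl41 encodes the shortest of these proteins, with a coding length of 75 bases, and had 385, 480.4 and 468 CPM in the controls and 304 and 345 CPM with H2O2. Its log2 change was -0.41 ± 0.07 (SE, n = 3 and 2) with no overlap between the groups, and it had the lowest adjusted p of the ribosomal protein genes, 0.024 by edgeR. Rpl39, which lines the tunnel through which the new protein leaves, read 134, 184 and 176 CPM in the controls and 112 and 143 CPM with H2O2. Here H2O2 replicate 2 lay above control replicate 1, so the groups overlapped, and its log2 change with the set term was -0.30 ± 0.07 (SE, n = 3 and 2), edgeR adjusted p 0.045. Rpl37 read 216, 242 and 240.2 CPM in the controls and 182 and 175 CPM with H2O2, again with no overlap, and its log2 change was -0.37 ± 0.08 (SE, n = 3 and 2), edgeR adjusted p 0.036.

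Rpl23a sits at the mouth of the exit tunnel, where factors that handle the new protein dock. It had 637, 759.9 and 718 CPM in the controls and 522 and 607 CPM with H2O2, a log2 change of -0.28 ± 0.07 (SE, n = 3 and 2) and an edgeR adjusted p of 0.049, the closest to the threshold among the called genes. Rpl35a, mutated in some patients with Diamond-Blackfan anaemia, read 242, 279 and 275 CPM in the controls and 186 and 212 CPM with H2O2. Its change was nearly the same in both sets, -0.38 (set A) and -0.38 (set B), and its log2 change over both was -0.38 ± 0.06 (SE, n = 3 and 2), edgeR adjusted p 0.025. Rpl14 and Rpl28 lay just outside the threshold, with adjusted p values of 0.052 and 0.053.

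In the small subunit, Rps29 and Rpsa fell. Rps29, a zinc-binding protein of the head of the subunit (chromosome 12, 69157722 to 69159186), stood at 108, 146 and 144 CPM in control replicates 1 to 3, beside 86.2 and 100.5 CPM in H2O2 replicates 1 and 2. Both H2O2 libraries were below all controls, with a log2 change of -0.44 ± 0.08 (SE, n = 3 and 2) and an edgeR adjusted p of 0.026. Rpsa, also known as the laminin receptor (chromosome 9, 120127766 to 120132369), was the most abundant of all at 1655, 2023 and 1929.5 CPM in control replicates 1 to 3, beside 1376 and 1532 CPM in H2O2 replicates 1 and 2. Its groups did not overlap either, and its log2 change was -0.32 ± 0.07 (SE, n = 3 and 2), edgeR adjusted p 0.040. Rps9 (0.065) and Rps3a1 (0.066) were nearest to the threshold among the rest.

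**Figure D3:**
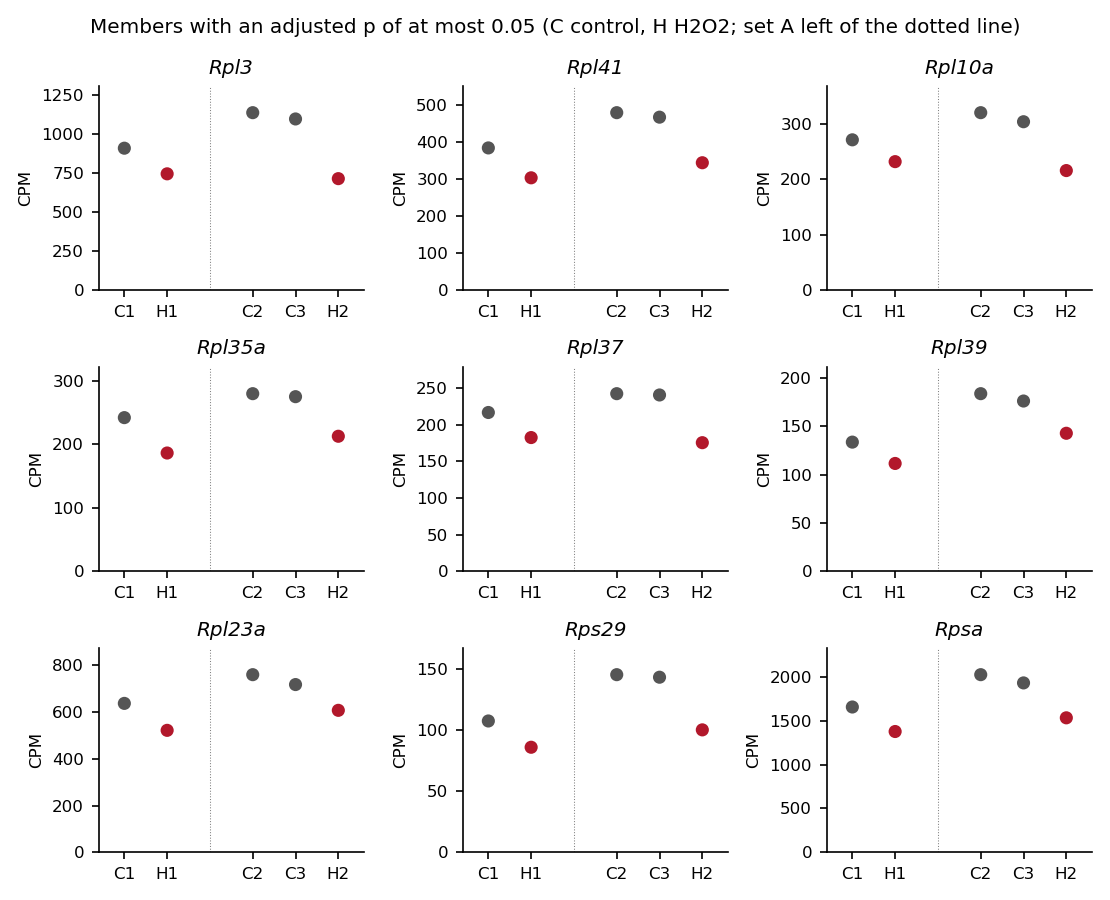
CPM of the 9 genes that passed the test in each library (C control, H H2O2, with the replicate number), set A left of the dotted line, each axis from 0. Within each set the H2O2 point is below the control points. In Rpl39 the H2O2 replicate 2 point (143) is above control replicate 1 (134).

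The other genes with known special roles had negative fitted changes that did not pass. Rpl5 and Rpl11 form a particle with 5S RNA that can bind Mdm2, the regulator of p53. Rpl5 read 755, 975 and 883 CPM in the controls and 711 and 778 CPM with H2O2, with H2O2 replicate 2 above control replicate 1. The log2 change of Rpl5 was -0.18 ± 0.08 (SE, n = 3 and 2), edgeR adjusted p 0.19. Rpl11 read 386, 418 and 447 CPM in the controls and 354 and 326 CPM with H2O2, with both H2O2 libraries below the controls. The log2 change of Rpl11 was -0.29 ± 0.09 (SE, n = 3 and 2), edgeR adjusted p 0.091. Rplp0, the base of the stalk that recruits elongation factors, read 1310.2, 1541 and 1471 CPM in the controls and 1289 and 1373 CPM with H2O2, and here too H2O2 replicate 2 lay above control replicate 1. The log2 change of Rplp0 was -0.09 ± 0.07 (SE, n = 3 and 2), edgeR adjusted p 0.47. Rpl10, among the last proteins to join the large subunit, had a log2 change of -0.12 ± 0.08 (SE, n = 3 and 2), and Rpl23 one of -0.09 ± 0.07 (SE, n = 3 and 2).

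Among the small subunit genes, Rps3 lies at the mRNA entry site and read 752, 988 and 898 CPM in the controls and 669.5 and 856 CPM with H2O2. H2O2 replicate 2 lay above control replicate 1 and below control replicate 3, and the log2 change was -0.15 ± 0.07 (SE, n = 3 and 2), edgeR adjusted p 0.23. Rps27a is made as a fusion with ubiquitin, and both its H2O2 libraries were lower than every control library at 488, 616 and 581 CPM in the controls and 436 and 459 CPM with H2O2. The log2 change of Rps27a was -0.29 ± 0.08 (SE, n = 3 and 2), edgeR adjusted p 0.073. Of the ribosomal proteins outside the naming rule, Fau had a log2 change of -0.25 ± 0.09 (SE, n = 3 and 2) and Rack1 of -0.21 ± 0.08. Neither passed in edgeR, DESeq2 or limma-voom, and both had an unadjusted edgeR p of at most 0.05.

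Rps6, the substrate of the S6 kinases downstream of mTORC1, could not be read on its own. Its row held only 461 to 676 estimated counts, while the transcribed pseudogene Rps6-ps4 (chromosome 2, 75190995 to 75191854) held 11900 to 17283. Rps6 was thus 3.58% to 5.07% of the counts of both rows in each library, and how the counting divided reads between them is not given in the sources used here. The Rps6 row had a log2 change of -0.11 ± 0.11 (SE, n = 3 and 2), with -0.35 (set A) and 0.05 (set B). Rps6-ps4 had -0.32 ± 0.08 with an edgeR adjusted p of 0.052, and the summed rows, an alternative chosen after the counts were seen, had -0.32 with an adjusted p of 0.051. Counts that were not whole numbers (beyond 0.004 of one) occurred in 16 of the 89 genes, and for these a division between copies has to be allowed for. Among the called genes, Rpl37 is one of them.

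No paralog passed the test, and their fitted changes had both signs. Rpl7l1, a relative of Rpl7 found in ribosome precursors, read 76.5, 73.3 and 77.8 CPM in the controls and 81.8 and 79.8 CPM with H2O2. It was the only ribosomal protein gene with both H2O2 libraries above every control library (13% of all genes) or above the controls of their own set (28.5%), and the only one with fitted changes above 0 in both sets (33%). Its log2 change was 0.09 ± 0.07 (SE, n = 3 and 2), edgeR adjusted p 0.45. Rps27l, a relative of Rps27 that p53 is known to induce, read 94.5, 108 and 111 CPM in the controls and 105 and 109 CPM with H2O2, with log2 changes of 0.15 (set A) and -0.0054 (set B). Over both sets Rps27l had 0.06 ± 0.07 (SE, n = 3 and 2), edgeR adjusted p 0.62, and this value turned below 0 under 4 alternatives, library totals among them. Rpl36al had 0.08 (set A) and -0.24 (set B), while Rpl22l1, a relative of Rpl22, was lower in both H2O2 libraries at 59.9, 61.9 and 73.3 CPM in the controls and 47.7 and 52.8 CPM with H2O2. The log2 change of Rpl22l1 was -0.34 ± 0.09 (SE, n = 3 and 2), edgeR adjusted p 0.068.

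The copies Rpl32l and Rpl37rt were low in all libraries, at 3.19 to 5.07 and 0.928 to 2.33 CPM. Their log2 changes of -0.37 ± 0.20 (SE, n = 3 and 2) and -0.72 ± 0.40 (SE, n = 3 and 2) had large errors and did not pass. The 6 genes that the filter left out were Rpl3l, Rpl39l, Rps27rt, Rps23rg1, Rpl34-ps1 and Rpl31-ps12, with 0 to 10.7 counts in any library. Rpl3l is known from heart and skeletal muscle and Rpl39l from testis.

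Per kilobase of coding length, Rpl41 stood highest in the large subunit, at 5288 CPM per kb averaged over libraries, followed by Rpl10 (1567), Rpl23 (1489) and Rplp0 (1469). In the small subunit Rpsa (1925), Rps24 (1749.5) and Rps2 (1416) had the highest means on the same scale. Rpsa and Rps24 ranked 1 and 2 in every library, while Rps2 ranked from 3 to 7. Among the tested genes with a coding length, Rpl7l1 (105), Rpl22l1 (162) and Rpl36al (264) had the lowest means in the large subunit. In the small subunit Rps27l (418) and Rps28 (475) were the lowest apart from the row of Rps6 (48.9), which gives no level of that gene: summed with Rps6-ps4 it came to 1018 to 1452 CPM per kb. Dividing by 75 coding bases makes the value of Rpl41 the least certain of these. The median log2 change was -0.23 both for the 50 genes with at most 500 coding bases and for the 31 longer ones. It was 0.01 for 975 other short genes and 0.05 for 2067 other genes of at least 100 CPM.

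The median fitted change with H2O2 lay nearer to 0 in set A than in set B. This median log2 change was -0.14 over large and -0.13 over small subunit genes in set A, beside -0.30 and -0.31 in set B. In set A 79 of 83 genes were below 0 (49.1% of all tested genes), in set B 81 (50.5%), and in both sets 78 (32.5%). The fitted fall was larger in set B for 79 of 83 genes, against 51.7% of all genes, with a median difference of -0.15. Each set holds 1 H2O2 library. In a fit with separate changes per set, the only spread between libraries is thus that of control replicates 2 and 3, and none is measured with H2O2. Set B taken alone, in the fit with separate changes per set, gave 40 lower ribosomal protein genes by edgeR (24 large, 16 small), against 4.62% of all genes. Tested gene by gene with the interaction of treatment and set, which leaves 1 residual degree of freedom, no ribosomal protein gene passed at an adjusted p of 0.05 by edgeR (0.0164% of all genes did), and 13 had an unadjusted p of at most 0.05, against 13.7% of all genes. That number depended on the scaling: it was 8 with DESeq2 size factors (12% of all genes), 20 with the upper quartile (14.3%), 25 with library totals (14.6%) and 27 with totals that leave out ribosomal protein genes (14.8%).

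Rpl38, a protein that certain Hox mRNAs are known to need for their translation, showed the largest difference between the sets among the genes above 10 CPM. It read 57.7, 83.7 and 97.3 CPM in the controls and 56.9 and 54.6 CPM with H2O2, with log2 changes of -0.02 (set A) and -0.73 (set B), and the adjusted p of the interaction was 0.13 by edgeR. Both H2O2 libraries and control replicate 1 thus lay together, below control replicates 2 and 3. Rps18 read 303, 409 and 407 CPM in the controls and 277 and 269 CPM with H2O2 and had -0.13 (set A) and -0.60 (set B). Rpl36 had -0.02 (set A) and -0.47 (set B), and Rps15 -0.0011 (set A) and -0.33 (set B).

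**Figure D4:**
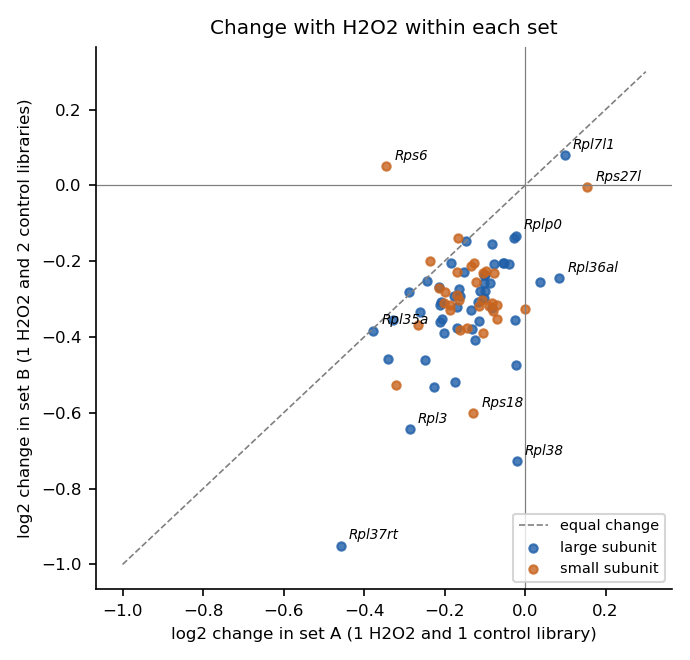
Log2 change with H2O2 in set A (x axis, 1 library against 1) and set B (y axis, 1 library against 2) for the 83 tested genes, large subunit in blue and small subunit in orange, with the line of equal change dashed. Most points lie below 0 on both axes and below the line, and Rpl38 has -0.02 on the x axis and -0.73 on the y axis.

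Control libraries of different sets differed from each other about as much as the treatment groups did. Control replicate 1 differed from control replicate 2 by a median of -0.25 over large and -0.29 over small subunit genes on the log2 scale, and control replicates 2 and 3 differed by 0.06 and 0.07. H2O2 replicate 2 differed from control replicate 1 by only -0.07 and -0.03. With H2O2 accounted for, 23 ribosomal protein genes were higher in set B than in set A by edgeR (14 large and 9 small), against 16.9% of all genes, and none was lower, against 19.1%. At an unadjusted p of at most 0.05, 38 differed in either direction, against 47.4% of all genes. The count of 23 was 8 when libraries were scaled to their totals (12.9% of all genes were higher) and 38 without H2O2 replicate 1 (16.9%). It was 4 without control replicate 1 (15%), 4 without control replicate 2 (11.8%) and 5 without control replicate 3 (12.2%), in each case a smaller share than that of all genes. The median log2 difference between the sets stayed above 0 whichever library was left out. It ran from 0.078 without control replicate 1 to 0.244 without H2O2 replicate 2. Rps2, which lies at the mRNA entry site, had the values 998, 1458 and 1653 CPM in the controls and 929 and 1187 CPM with H2O2, and its log2 difference between set B and set A was 0.52 (edgeR adjusted p 0.0074).

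Over the libraries, 53 genes were below every control library in both H2O2 libraries (31 large, 22 small), against 10.7% of all genes, and 78 were below the controls of their own set, against 28%. The exceptions to the latter were Rpl7l1, Rpl30, Rpl36al, Rps6 and Rps27l.

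**Figure D5:**
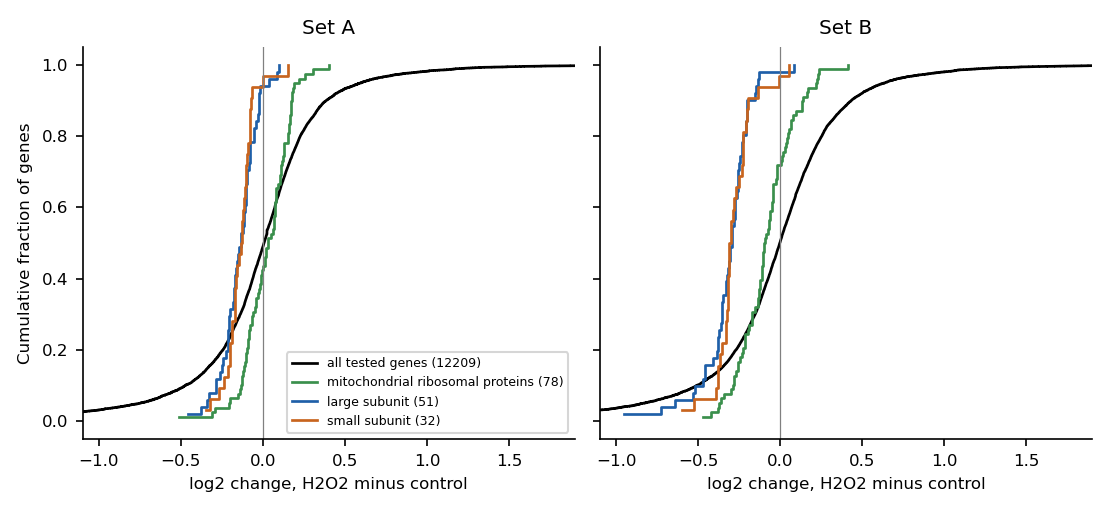
Cumulative fraction of genes (y axis) by log2 change with H2O2 (x axis) in set A (left) and set B (right), for large subunit, small subunit, mitochondrial ribosomal protein and all tested genes. The curves of both subunits lie left of all genes in each set (medians -0.14 and -0.13 on the left panel, -0.30 and -0.31 on the right). The mitochondrial curve has medians of 0.03 and -0.10.

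Few genes of the pathways around these mRNAs passed the test. Of 27 translation factors and other TOP mRNAs, 3 fell and none rose, beside 4.61% and 3.93% of all tested genes, with a median log2 change of -0.16. The initiation factor Eif4b had -0.33 ± 0.06, the nascent chain protein Naca -0.32 ± 0.07 and the initiation factor subunit Eif3e -0.29 ± 0.07 (SE, n = 3 and 2), with edgeR adjusted p values of 0.031, 0.041 and 0.046. None of the 3 passed without control replicate 2, control replicate 3 or the set term, with the replicate block (edgeR adjusted p 0.10 to 0.17) or without the filter. Of all genes, 3.87%, 1.62%, 0%, 2.74% and 0.256% were called lower in these fits, in the same order. Without H2O2 replicate 2, which leaves 1 H2O2 library, the log2 changes of Eif4b, Naca and Eif3e were -0.34, -0.30 and -0.26. Without control replicate 1, 6 genes of the list were called lower, beside 6.8% of all genes. At an unadjusted p of at most 0.05, 1 gene was higher and 10 were lower, beside 14.1% of all genes lower. Eef1a1, the elongation factor and most abundant gene of the list, had -0.24 ± 0.08 and an adjusted p of 0.10.

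Of 20 genes of mTORC1 and LARP1 control, none passed in edgeR, DESeq2 or limma-voom, and 1 was higher at an unadjusted edgeR p of at most 0.05. Without control replicate 1, 3 were called higher and 1 lower, with a median log2 change of -0.03. In that fit 6.8% of all genes were called lower. The share called higher is not given here, so the 3 are not read as a result about these genes. Their median log2 change was 0.01, and -0.05 with library totals, and Larp1 itself had 0.08 ± 0.07 (SE, n = 3 and 2). No gene passed in the same 3 tools among 20 of ribosome stalling and rescue (median 0.10), 19 of late subunit maturation (0.07, and -0.0057 with totals that leave out ribosomal protein genes) or 78 mitochondrial ribosomal proteins (-0.05). At an unadjusted edgeR p of at most 0.05 these lists held 3, 4 and 2 genes. Of these 1, 1 and 2 were lower, beside 14.1% of all genes lower. Without control replicate 1 each of these lists had 1 gene called lower, beside 6.8% of all genes. The mitochondrial median was 0.03 without H2O2 replicate 2.

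Markers of other cell states moved with H2O2, and their part in the ribosomal protein values was not tested. Of 19 dividing cell markers 18 fell (median log2 change -1.41), while 4.61% of all tested genes fell. The summed level of these markers was 669.99 to 1881 CPM in the controls and 445 to 816 CPM with H2O2. Within the controls that sum was highest in control replicate 1, the only control of set A, where the ribosomal protein share was lowest. In H2O2 replicates 1 and 2 the sum was 816 and 445 CPM, at ribosomal protein shares of 3.41% and 3.39%. Leaving out H2O2 replicate 1 or 2 leaves 1 H2O2 library, and the median log2 change of the dividing cell markers was then -1.33 and -1.55. Without the set term no marker list had a called gene, and without the filter on low counts 2 dividing cell markers, 1 mast cell marker and no dendritic cell marker were called lower. Of all genes, 0% were called lower without the set term, 0.256% without the filter and 1.62% without control replicate 3. Of 8 mast cell and basophil markers 5 fell (3 without control replicate 3), at a summed 34.8 to 85.4 CPM in the controls and 11.3 to 26.9 CPM with H2O2. Their median log2 change was -2.05, and -2.20 without H2O2 replicate 2. Of 15 tested dendritic cell markers 7 fell (4 without control replicate 3), at a summed 17289 to 20036 CPM in the controls and 15477 to 17676 CPM with H2O2. Their median was -0.33, and -0.38 without H2O2 replicate 2.

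Of 12 tested neutrophil markers 1 rose (Mmp8) and 3 fell (Mpo, Ctsg and Cxcr2). The 14 tested macrophage markers held 1 that rose (Cd68) and 2 that fell (C1qb among them), and 3.93% of all tested genes rose and 4.61% fell. Neutrophil markers summed to 567 to 1322 CPM in the controls and 972 to 1826 CPM with H2O2. Mmp8 alone held 432 to 783 CPM and 844 to 1235 CPM of these sums. Macrophage markers summed to 29048 to 33062 CPM in the controls and 32496 to 39741 CPM with H2O2. Cd68 held only 275 to 309 CPM and 372 to 396 CPM of these sums, and 5 of the 14 tested markers had fitted changes below 0. With all libraries the median log2 change was -0.46 over the neutrophil and 0.22 over the macrophage list, and -0.39 and 0.09 without H2O2 replicate 2. The macrophage list had no called gene without control replicate 3 and 3 higher, 0 lower without control replicate 1. The neutrophil list had 2 higher without control replicate 1, 2 or 3, with 3, 4 and 2 lower. Of all genes, 6.8%, 3.87% and 1.62% were called lower in these fits, and the shares called higher are not given here. Lymphoid and erythroid markers summed to 0.484 to 3.66 CPM in every library, none of the 12 passing the filter on low counts, and no marker of any list was at 0 in every library.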

How the data were processed

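RNA-seq libraries from total RNA of 3 control and 3 H2O2 samples were analysed; 1 H2O2 file was a copy. The authors deposited 1 table per sample of estimated counts per NCBI Gene number, not normalized. HISAT and Bowtie2 with the build GRCm38.p6 appear, without roles, per the submitters' processing notes. No counting program or strand setting was given in the sources used here. Gene names came from RefSeq (GRCm38.p6) for 17520 of 17567 numbers, and coding lengths from GENCODE M21. Counts were rounded and tested with edgeR 4.0.16 (R 4.3.3): filterByExpr (minimum count 10, total 15), TMM scaling, a quasi-likelihood fit with treatment and set, 2 residual degrees of freedom, and Benjamini-Hochberg adjustment over 12209 genes. SE was the log2 change divided by the square root of F. CPM are TMM-scaled. Shares and the Y-linked sums use plain totals. The fit was tested on simulated data. Alternatives used DESeq2 1.42.0, limma 3.58.1 voom, other scalings, no filter and each library left out.

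The named genes were the called ones, those highest and lowest in level or change, those with the lowest interaction p, paralogs, genes below the filter, and Rpl3, Rpl5, Rpl11, Rplp0, Rpl10, Rps3, Rps6, Rpsa, Rps27a, Fau and Rack1; 1 further gene of that rule is not reported here. Of 12 paralogs, 8 followed the naming rule and 4 (Rpl37rt, Rps23rg1, Rpl34-ps1 and Rpl31-ps12) were added after the rows were seen. The alternatives for the set comparison, the gene lists and the level per coding length were chosen after seeing the data. Members and lists were chosen with earlier results of these data known.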

Additional observations from a re-analysis of the deposited data

How the results depend on the processing

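The medians of both subunits kept their direction in every alternative. Without H2O2 replicate 2 they went from -0.2433 to -0.1377 (large) and from -0.2214 to -0.1321 (small). Counts of called genes moved widely. Over all genes, those called higher numbered 0 without the set term, 220 with a replicate block and 60 without the filter. Those called lower numbered 0, 334 and 42 in the same order, 910 with library totals and 1018 with totals that leave out ribosomal protein genes. Large subunit genes called numbered 0 without the set term, with the replicate block and without the filter, 19 with library totals, 23 with totals that leave the genes out, 11 with upper-quartile scaling and 12 with DESeq2. Small subunit genes called numbered 0, 0 and 0 in the same first settings, then 11 and 12 with the totals and 5 with DESeq2. Upper-quartile scaling gave 13 over both subunits. All these calls were lower. Of all genes, 7.45% were called lower with library totals and 8.34% with totals that leave the genes out. With upper-quartile scaling 5.79% were, and with DESeq2 4.33%. At an unadjusted p of at most 0.05, 14 ribosomal protein genes were lower without the set term (3.19% of all genes), 37 with the replicate block (10.3%) and 52 without the filter (10.4%).

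With 1 library left out at a time, genes called higher ran from 1 to 1249, genes called lower from 0 to 816, large subunit genes called from 0 to 30 and small subunit genes called from 0 to 21. The log2 change ran from -0.2526 to 0.0817 for Rpl36al (above 0 without H2O2 replicate 2), from -0.3481 to 0.0535 for Rps6 (0.0435 without control replicate 1, 0.0535 without H2O2 replicate 1) and from -0.0133 to 0.1521 for Rps27l (-0.0133 without control replicate 1, -0.0033 without H2O2 replicate 1). Rps27l had -0.0021 with library totals and -0.0137 with totals that leave the genes out. The cause was not tested. Same-numbered libraries deviated together (r = 0.83 and 0.74 over genes), but control replicate 3 did so with H2O2 replicate 2 as well (r = 0.69), so the numbers share the set and are not shown to pair samples. The deviations of the 2 H2O2 libraries are mirror images (control replicate 1 has r = 0.83 and -0.83 with them), so these values are not independent. A single H2O2 library per set limits what can be seen.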
